A study of Mus with 2 samples.

Results

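The genes described here encode enzymes that build and cap the sugar chains of mucins and of the cell surface. They were taken by symbol, as the mouse genes whose names begin with Galnt, B3gnt, B4galt, B3galt, St3gal, St6gal, St8sia, Gcnt, Fut, C1galt1, B4galnt or Chst. Of 8989 genes listed in any of 5 deposited cell type sheets, 39 met this rule, and 10 of the 39 were also listed in the deposited table of cluster markers. Sheets were deposited for enterocytes (16 of 3425 genes with a symbol), stem cells (16 of 5402), goblet cells (27 of 4536), enteroendocrine cells (15 of 5286) and tuft cells (28 of 6764). The study profiled sorted epithelial cells of the mouse distal ileum by inDrops, a droplet method of single-cell RNA sequencing. One sample came from mice of the genotype Nav1.8Cre+/-DTA+/-, in which diphtheria toxin A, switched on by a Cre recombinase made in cells that express the sodium channel Nav1.8, ablates nociceptors. The other came from littermate controls of the genotype Nav1.8Cre-/-DTA+/-, which carry the toxin allele without Cre. Both were at baseline, both pooled 3 mice, per the labels, and both were 8-week-old males, per the deposited library sheet.

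Mucin-type glycosylation starts in the Golgi, where polypeptide GalNAc-transferases put a first sugar, N-acetylgalactosamine, on serine or threonine. Core enzymes then add galactose or a branch, extending enzymes lengthen the chain with galactose and N-acetylglucosamine, and fucose, sialic acid, further N-acetylgalactosamine or sulfate closes it. In the intestine these chains give the goblet cell mucin Muc2 its gel properties, and on absorptive cells they form part of the glycocalyx that microbes and toxins meet.

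For a pair of cell groups, each sheet gives the percentage of cells with the gene in either one, and a log2 fold change of the first over the second. The genotype behind each group is not stated, and the order may differ between sheets. They are named group 1 and group 2 by their place in the sheet, and no value has a direction of nociceptor loss. With 1 sample per genotype there was no test, and the depth and cell numbers behind these values are not stated. The fold changes include an offset, which compresses those of weakly detected genes and whose size is not stated. Recurring tuft values, such as -0.19 for 0% against 14.3%, match an offset of 1 on mean counts that were not scaled to depth. Most genes of every sheet lay slightly under 0, with medians over all genes from -0.03 in enterocytes to -0.11 in tuft cells. The part of sequencing depth in this shift was not tested. Shares took only 35 and 41 distinct values (groups 1 and 2) in enteroendocrine cells and 19 and 8 in tuft cells, against 183 or more in each group of the other sheets. Such coarse steps mean that these groups held few cells. The lowest shares above 0 of the enzyme genes were 2.9% and 2.5% in enteroendocrine cells and 5.6% and 14.3% in tuft cells. At this coarseness such a share can stand for 1 cell. Each listed gene reached at least 10% of cells in one of the groups. Of their own markers the goblet sheet listed 15 of 15, the enterocyte sheet 15 of 18, the stem cell sheet 9 of 10, the enteroendocrine sheet 18 of 19 and the tuft sheet 13 of 15. Markers of other types were listed as well, such as 16 of 18 enterocyte markers in the tuft sheet and 14 of 18 in the goblet sheet. The median detection of the listed markers was highest for the sheet's own type in goblet cells (88.85%), tuft cells (59.1%), enterocytes (58.1%) and enteroendocrine cells (38.15%). In the stem cell sheet it was 24.15% for stem markers, under the 42.475% of the 8 of 15 goblet markers listed there. Between sheets, the median of the listed stem markers was still highest in the stem cell sheet, against 9.75% to 15.475% in the others. Lgr5 and Sox9 were exceptions, with a higher mean detection in tuft cells.

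Most enzyme genes listed in 3 or more sheets were detected most often in goblet cells, whereas the sialyltransferase gene St3gal4 was most frequent in enterocytes. Of these 17 genes, 12 had their highest mean detection (mean of both groups) in goblet cells, 2 in enterocytes, 2 in tuft cells and 1 in enteroendocrine cells. The matching share over all genes was not counted, so only the counts by pairs of sheets that follow have one. Where a gene was listed in both sheets, detection was higher in goblet than in stem cells for 14 of 15 enzyme genes, against 29.5% of all genes listed in both. The same count was 11 of 13 in goblet cells against enterocytes (66.6% of all genes), 12 of 13 against enteroendocrine cells (69%) and 15 of 18 against tuft cells (64.7%). These shares depend on the depth of each cell type, which is unknown, and cells of all types came from the same 2 pools of mice.

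**Figure D1:**
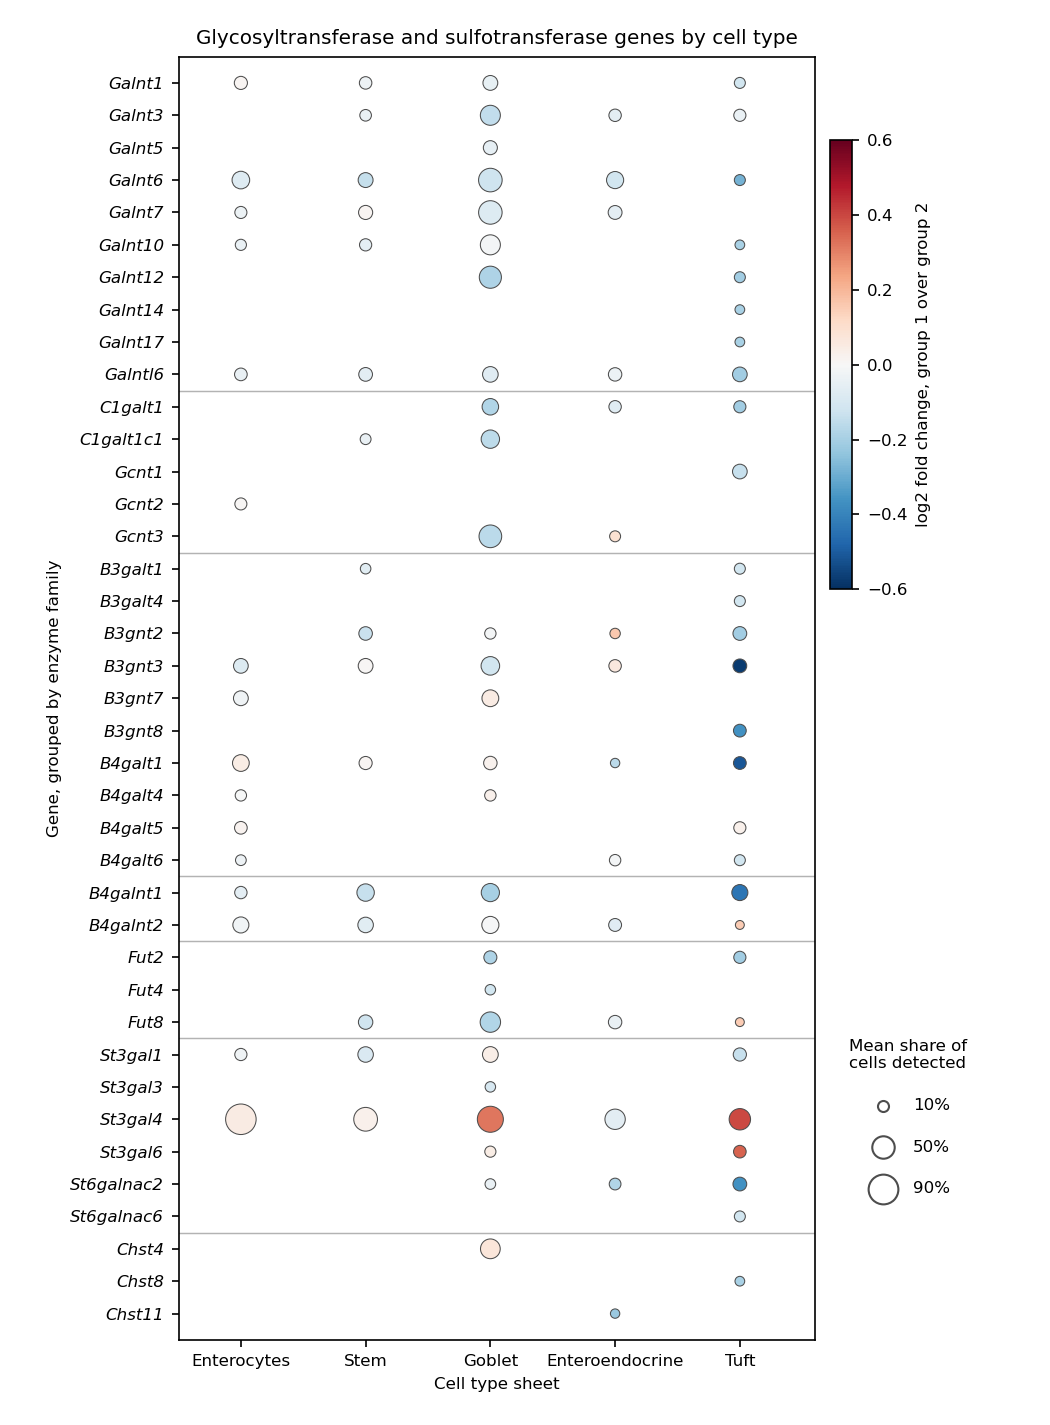
Log2 fold change (group 1 over group 2, colour) and mean detection share (dot area grows with the percentage of cells) of all 39 enzyme genes (rows, by family) in the 5 cell type sheets (columns); an empty place means that the sheet does not list the gene. The largest dot is that of St3gal4 in enterocytes, and many of the other large dots lie in the goblet column, which also holds small ones. The St3gal4 row is filled in all 5 sheets, and the strongest colours lie in the coarse tuft sheet and at St3gal4 in goblet cells.

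In the cluster marker table most entries of these genes fell in 1 cluster. Of the 12 entries that the enzyme genes had in that table, 9 belonged to cluster 4, which held 13.5% of all 2096 entries. Cluster 4 is goblet-like by its markers: it listed all 15 goblet markers, and 8 of its 10 leading genes by fold were among them. It also listed 4 of the 12 Paneth markers, with Defa24 among those 10 leading genes. The part of Paneth cells in its entries was not tested. The clusters were made from the same cells, so these contrasts are descriptions.

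Gcnt3, which makes branched mucin cores, had the widest contrast: it was detected in 47.3% of cluster 4 cells and 1.6% of all other cells in the authors' deposited table, a log2 fold change of 0.69. Galnt12, a GalNAc-transferase, was found in 45.1% of cluster 4 cells and 2.4% of others in the authors' deposited table. Chst4, which sulfates N-acetylglucosamine, had 34.7% and 3.2% in the authors' deposited table. All 3 were thus rare outside the goblet-like cluster, and none of them was listed for enterocytes or stem cells. Besides goblet cells, Gcnt3 was listed for enteroendocrine cells and Galnt12 for tuft cells, and Chst4 for no other type. On the same scale Muc2 itself was at 96.7% in cluster 4 and 23.2% outside it in the authors' deposited table, so transcripts of this abundant goblet gene were counted in many cells of other clusters. Galnt7, which prefers peptides that already carry a sugar, was detected in 50.4% of cluster 4 cells and 10.2% of others in the authors' deposited table. The initiating enzyme gene Galnt3 had 34.9% and 5.7%, and Galnt10 35.1% and 9.0%, in the authors' deposited table. C1galt1c1, the chaperone (Cosmc) that the core 1 galactosyltransferase needs, had 29.2% in cluster 4 and 5.0% outside in the authors' deposited table. Fut8, which adds the core fucose of N-linked chains, was at 35.9% and 8.2%, and the least specific of the 9, Galnt6, at 43.9% and 21.7%, in the authors' deposited table.

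St3gal4, which caps terminal galactose with sialic acid, had the other 3 entries. It was detected in 97.2% of cluster 1 cells and 78.9% of the rest in the authors' deposited table, a log2 fold change of 0.44. Cluster 1 listed 14 of the 18 enterocyte markers, with Fabp2 and Apoa1 among its 10 leading genes. In cluster 3 the shares were 98.8% and 81.3% (log2 fold change 0.65) and in cluster 5 96.9% and 82.4% (0.49), in the authors' deposited table. Clusters 3 and 5 listed 4 and 6 enterocyte markers, with 1 each among their 10 leading genes, and are not named. Clusters 1, 3 and 5 held 11.5%, 4.29% and 3.34% of all entries. St3gal4 was thus also frequent in the pooled cells outside each of these clusters, which mix all other cell types.

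**Figure D2:**
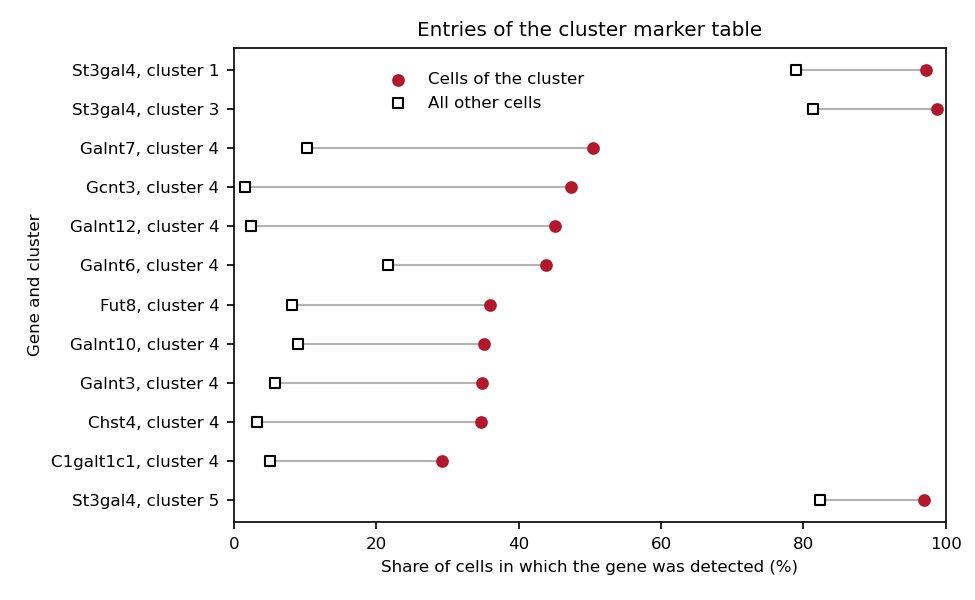
Share of cells (x axis, percent) in which each enzyme gene was detected inside the named cluster (filled circles) and in all other cells (open squares), for the 12 entries of the authors' deposited marker table. Gcnt3, Galnt12 and Chst4 lie under 4% outside cluster 4, whereas St3gal4 lies above 78% outside each of its 3 clusters.

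By position (RefSeq annotation of GRCm38.p6, matched by symbol; all protein-coding), Gcnt3 lies at chr9:70031495-70039890 and St3gal4 on the same chromosome at chr9:35046576-35116864. Galnt12 lies at chr4:47091894-47123058, Chst4 at chr8:110029075-110039401, Galnt7 at chr8:57523825-57653055 and C1galt1c1 at chrX:38630783-38635143. That annotation holds 93 protein-coding genes that meet the symbol rule, of which 54 were in no sheet; none of its 6 St8sia genes was listed.

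In goblet cells, St3gal4 was higher in group 1. The core enzymes, the fucosyltransferases and most GalNAc-transferases were slightly lower, as were most genes of that sheet. None of it was tested. St3gal4 was the only one of 27 enzyme genes with an absolute log2 fold change of at least 0.25, a size that 3.37% of all goblet genes reached. Values above 0 were found for 7 of 27, against 27.3% of all genes, and 11 of 27 when fold changes were taken relative to the sheet's median. The median of the 27 was -0.07 and that of all 4536 genes -0.04. At -0.1 or lower lay 11 of 27, against 23.1% of all genes. Among genes detected in a mean of at least 20% of cells, 9 of 18 did, against 38.8% of all genes at that detection, with medians of -0.10 for the 18 and -0.07 for all. At an absolute value of 0.1 or more lay 12 of 27, against 27% of all genes. Detection was lower in group 1 for 20 of 27, against 71.4% of all genes.

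All 8 GalNAc-transferase genes listed in goblet cells lay under 0, as did 3299 of all 4536 genes. Of the 8, 7 lay under the median of the sheet. Galnt12 was found in 41.5% of goblet cells in group 1 and 55.4% in group 2 in the authors' deposited table, with a log2 fold change of -0.19. A detection difference of 10 percentage points or more, as here, was reached by 3 of the 27 enzyme genes and by 5.82% of all genes. Galnt3, known for glycosylating the phosphate hormone FGF23, had 34.4% and 43.9% with a log2 value of -0.15 in the authors' deposited table. Galnt6 was at 51.8% and 59.2% (-0.12) in the authors' deposited table. Galnt7 and Galnt10, which extend glycosylation from sites already modified, were close to level in detection. The authors' deposited table gave Galnt7 54.4% and 55.8% (-0.08) and Galnt10 37.9% and 40.5% (-0.01). Galnt1, a broadly expressed initiator, had 18.5% and 22.1% (-0.05), Galnt5 17.4% and 18.4% (-0.05) and Galntl6 21.5% and 24.1% (-0.07) in the authors' deposited table.

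The 3 core enzyme genes lay together, between -0.16 and -0.18 on the log2 scale. Each was detected in fewer cells of group 1, as were 71.4% of all genes. C1galt1, which makes the core 1 disaccharide, was found in 19.5% of goblet cells in group 1 and 32.0% in group 2 in the authors' deposited table (log2 fold change -0.18). Its chaperone gene C1galt1c1 was at 28.7% and 36.4% (-0.16) in the authors' deposited table. Gcnt3 was at 48.7% and 53.4% (-0.16) in the authors' deposited table. For scale, all 3 lay within the 5th to 95th percentile of all goblet genes, from -0.21 to 0.09.

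Chain-extending enzyme genes lay around 0, with 3 of 5 above 0, against 27.3% of all genes, and 4 of 5 above the median of the sheet. B3gnt7, which lengthens sulfated lactosamine chains, was found in 30.8% of goblet cells in group 1 and 22.8% in group 2 in the authors' deposited table (0.05). B4galt1, the main galactosyltransferase for N-acetylglucosamine ends, had 17.4% and 15.0% (0.02), and B4galt4 12.3% and 9.5% (0.03), in the authors' deposited table. B3gnt3, an extender of core 1, was the exception with 30.3% and 36.4% (-0.12) in the authors' deposited table. B3gnt2, a polylactosamine synthase, lay near 0 with 10.3% and 11.2% (-0.01) in the authors' deposited table.

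Among the capping enzymes, all 3 fucosyltransferase genes were under 0, as were 3299 of all 4536 genes, and under the median of the goblet sheet. Fut2, the secretor enzyme that puts fucose on terminal galactose, was found in 10.3% of goblet cells in group 1 and 19.7% in group 2 in the authors' deposited table (-0.19). Fut8 was at 36.4% and 45.2% (-0.18) and Fut4, which makes Lewis X, at 4.6% and 12.9% (-0.12) in the authors' deposited table. The GalNAc-adding pair split: B4galnt1, a ganglioside synthase, had 27.7% and 36.1% (-0.20), the lowest value of the 27, while B4galnt2, which makes the Sda antigen, had 28.2% and 27.6% (-0.0089), in the authors' deposited table. The sulfotransferase gene Chst4 was at 39.0% and 37.1% (0.07) in the authors' deposited table.

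Sialyltransferase genes in goblet cells had 3 of 5 members above 0, against 27.3% of all genes, and 4 of 5 above the median of the sheet. St3gal4 was found in 73.3% of goblet cells in group 1 and 62.9% in group 2 in the authors' deposited table. Its log2 fold change of 0.32 ranked 20 from the top among 4536 genes and lay far from the next enzyme gene, Chst4. St3gal6, a related enzyme, had 11.8% and 8.8% (0.04) and St3gal1, which sialylates core 1, 23.1% and 23.5% (0.04), in the authors' deposited table. St3gal3 had 5.6% and 11.9% (-0.10) and St6galnac2, which sialylates the innermost sugar, 7.7% and 10.5% (-0.04), in the authors' deposited table.

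Enterocyte markers had values above 0 in the goblet sheet, as St3gal4 did. Of the 18 enterocyte markers 14 were listed there, and 14 of 14 had a log2 fold change above 0, against 27.3% of all genes, with a median of 0.15 and Apoa1 highest at 1.29 in the authors' deposited table. Their summed detection was 625.2% in group 1 and 580.7% in group 2, none was at 0, and Apoa4, Fabp1, Lct and Treh were not listed. Goblet markers summed to 1115.5% in group 1 and 1129.7% in group 2, with 5 of 15 above 0. Paneth markers, of which 8 of 12 were listed, had 5 above 0 and sums of 251.2% in group 1 and 259.5% in group 2. The part of other cells' RNA in the St3gal4 value was not tested.

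**Figure D3:**
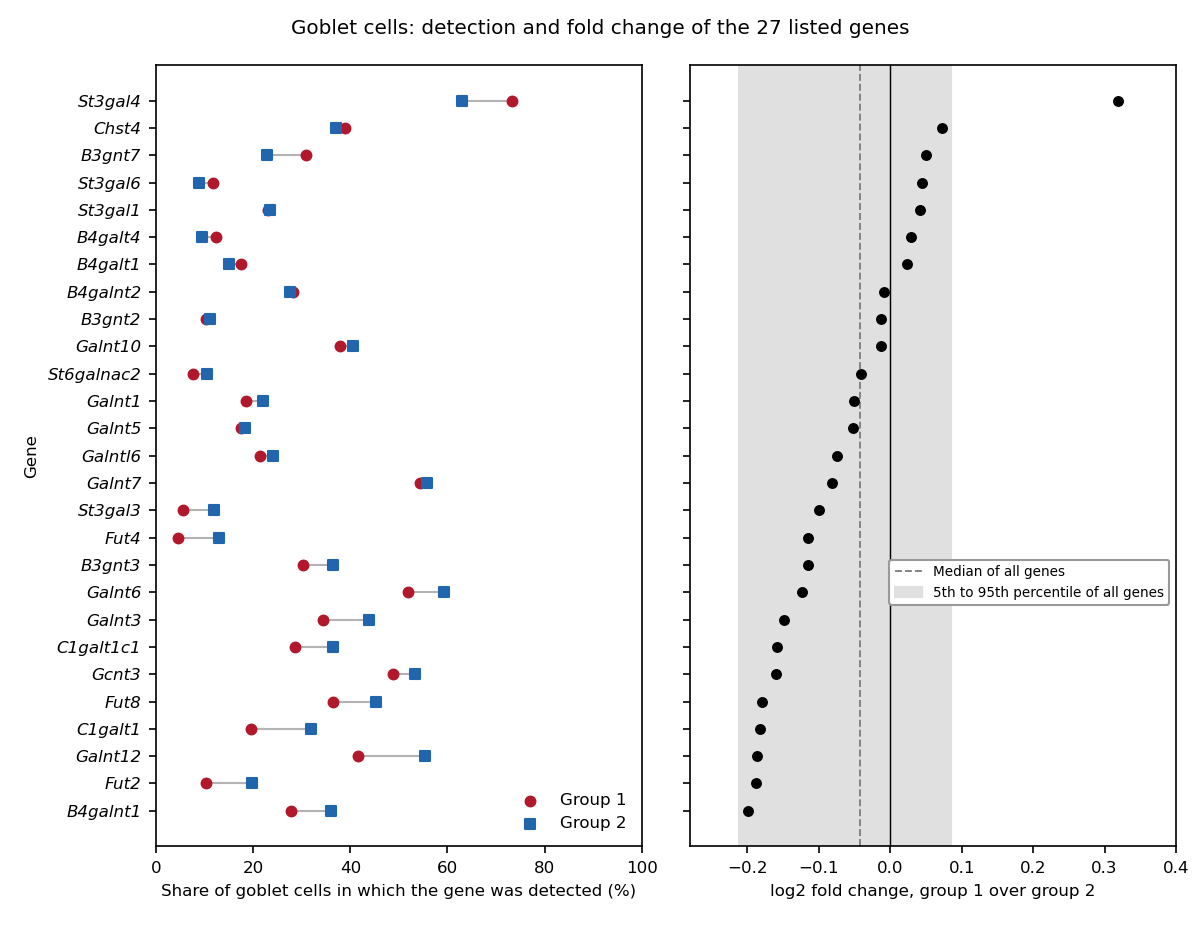
Left, share of goblet cells in which each of the 27 listed enzyme genes was detected (x axis, percent) in group 1 (circles) and group 2 (squares); right, log2 fold change of group 1 over group 2 with the 5th to 95th percentile of all goblet genes shaded. St3gal4 at 0.32 is the single gene outside the shaded range, and Galnt12 and C1galt1 have the widest gaps in detection.

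In enterocytes the enzyme genes were nearly level between the groups. None of 16 reached 0.25, against 1.75% of all genes, and none reached 0.1, against 16.2%. None differed in detection by 10 percentage points, against 1.02% of all genes, and 10 of 16 were detected in fewer cells of group 1, against 72.3%. Their log2 fold changes ran from -0.08 to 0.05 with a median of -0.03, equal after rounding to that of all genes, and 5 of 16 were above 0, against 21.4% of all genes (10 of 16 relative to the median of the sheet). In the authors' deposited table St3gal4 was found in 95.4% of group 1 enterocytes and 94.3% of those of group 2, with the highest value of the 16 at 0.05. B4galt1 had 28.4% and 24.9% (0.04) in the authors' deposited table. At the low end B3gnt3 had 18.3% and 21.6% (-0.08) and Galnt6 27.2% and 32.3% (-0.08) in the authors' deposited table. B4galnt2, an enzyme gene typical of mouse intestinal epithelium, was close to level with 23.6% and 24.8% (-0.02), and B4galnt1 had 11.8% and 14.8% (-0.06), in the authors' deposited table. The remaining genes named by the rule were all detected in under 16% of either group: Galnt1 (0.01), Galnt7 (-0.04), Galnt10 (-0.04), Galntl6 (-0.05), B4galt6 (-0.03) and St3gal1 (-0.02), by log2 fold change in the authors' deposited table.

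Stem cells showed low values for most enzyme genes, as for most genes of that sheet. None of 16 reached 0.25, against 4.41% of all genes, and 4 reached 0.1, against 31.8%. None differed in detection by 10 percentage points, against 9.2%, and 14 of 16 were detected in fewer cells of group 1, against 91.8%. Above 0 were 4 of 16, against 8.16% of all genes, and relative to the median of the sheet 11 of 16 were; the median was -0.06, and -0.07 over all genes. Those above 0 were St3gal4, detected in 56.2% of both groups (0.03), B4galt1 with 16.1% and 14.5% (0.01), Galnt7 with 17.7% and 18.5% (0.01) and B3gnt3 with 19.7% and 20.6% (0.0072), in the authors' deposited table. Lowest were Galnt6 with 16.6% of group 1 and 24.4% of group 2 (-0.14), B4galnt1 with 24.3% and 33.6% (-0.14) and B3gnt2 with 12% and 21% (-0.13), in the authors' deposited table. These 3 also lay under the median of the sheet, as did Fut8 with 15.4% and 22.6% (-0.12) in the authors' deposited table. St3gal1 had 18.6% and 26.3% (-0.09) and B4galnt2 19.5% and 25.5% (-0.07) in the authors' deposited table. The GalNAc-transferase genes Galnt1 (-0.03), Galnt3 (-0.04), Galnt10 (-0.06) and Galntl6 (-0.06) and the chaperone gene C1galt1c1 (-0.04) completed the named genes in the authors' deposited table. Of the 8 goblet markers listed in this sheet 1 was above 0, against 8.16% of all genes, and their summed detection was 346.1% in group 1 and 427.7% in group 2. Their part in these values was not tested.

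The enteroendocrine sheet listed 15 enzyme genes, none past 0.25, against 8.7% of all genes, and 3 of 15 above 0, against 35.3% of all genes (6 of 15 relative to the median of the sheet). Their median was -0.06 and that of all genes -0.05. An absolute value of 0.1 was reached by 5 of 15, against 50.9% of all genes. A detection difference of 10 percentage points was found for 2 of 15, against 29.2%, and lower detection in group 1 for 10 of 15, against 67.3%. The genes above 0 were B3gnt2, detected in 14.7% of group 1 and 2.5% of group 2 cells (0.16), Gcnt3 with 14.7% and 5.0% (0.09) and B3gnt3 with 14.7% and 12.5% (0.06), in the authors' deposited table. The equal share of 14.7% in all 3 shows how coarse this sheet is. St3gal4 had 41.2% and 40.0% with a log2 fold change of -0.06, and Galnt6 23.5% and 32.5% (-0.11), in the authors' deposited table. Low values were those of Chst11, a chondroitin sulfotransferase gene, with 2.9% and 10.0% (-0.22), St6galnac2 with 5.9% and 17.5% (-0.18) and B4galt1 with 2.9% and 10.0% (-0.16) in the authors' deposited table. Values from -0.07 to -0.0095 were given for Galnt3, Galnt7, Galntl6, B4galt6, B4galnt2, C1galt1 and Fut8 in the authors' deposited table.

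Tuft cells had the widest spread of values and the least resolution. Past 0.25 were 8 of 28 enzyme genes, against 29% of all genes, 2 above and 6 below. Above 0 were 5 of 28, against 31.3% of all genes (6 of 28 relative to the median of the sheet, which was -0.11). An absolute value of 0.1 was reached by 26 of 28, against 83.1%, a detection difference of 10 percentage points by 16 of 28, against 65.4%, and lower detection in group 1 by 24 of 28, against 68.6%. Identical values recurred: Galnt1, B4galt6, B3galt1, B3galt4 and St6galnac6 each had 5.6% of group 1 and 14.3% of group 2 cells and a log2 value of -0.11 in the authors' deposited table. Group 1 was listed at 0 for 6 of the 28 and group 2 for 3, together 9 of 28, against 41.6% of all genes. For St3gal4 the 2 measures disagreed in direction, with a share of 33.3% in group 1 and 57.1% in group 2 and a log2 value of 0.40 in the authors' deposited table. St3gal6 was detected in 27.8% of group 1 and listed at 0 in group 2 in the authors' deposited table. The lowest value was that of B3gnt3, with 5.6% and 28.6% (-0.57), in the authors' deposited table. B4galnt1 had 5.6% and 42.9% (-0.44), St6galnac2 5.6% and 28.6% (-0.36) and Galnt6 5.6% and 14.3% (-0.28) in the authors' deposited table. B4galt1 was at 0 in group 1 and 28.6% in group 2, and B4galnt2 and Fut8 at 11.1% in group 1 and 0 in group 2, in the authors' deposited table. Smaller values under 0 were those of Galnt3 (-0.04), St3gal1 (-0.14), Galnt12 (-0.21), Galntl6 (-0.21), C1galt1 (-0.21) and B3gnt2 (-0.21) in the authors' deposited table, and Galnt10 was listed at 0 in group 1.

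**Figure D4:**
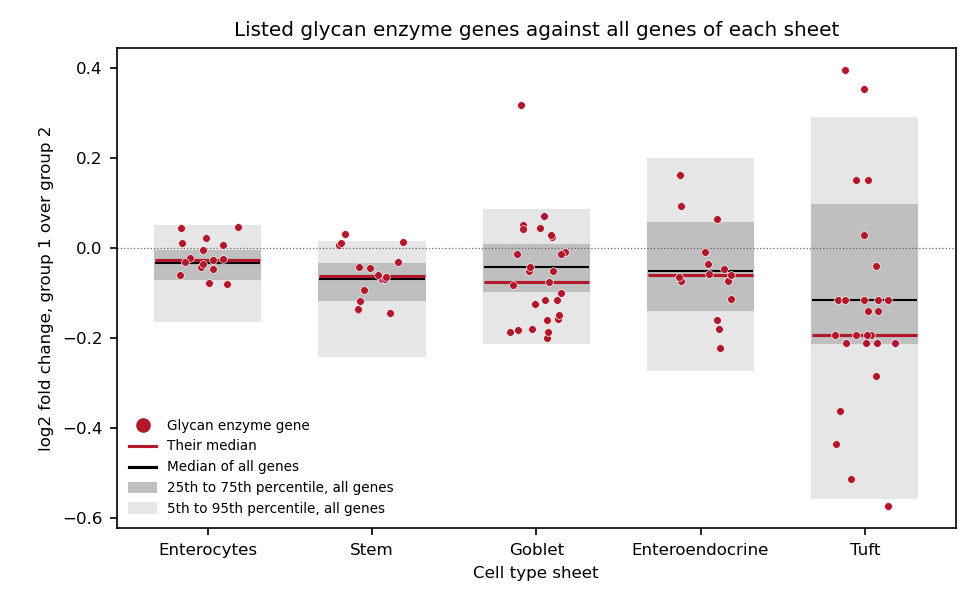
Log2 fold change of group 1 over group 2 (y axis) of each listed enzyme gene (red points, median as a red line) against all genes of the same sheet (black line, median; dark and light grey, 25th to 75th and 5th to 95th percentiles), for the 5 cell types. The red and black medians lie close together except in tuft cells, and St3gal4 stands above the light range in the stem, goblet and tuft sheets.

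Side by side over the sheets, 6 enzyme genes were listed in all 5: St3gal4, Galnt6, Galntl6, B3gnt3, B4galt1 and B4galnt2. Galnt6 and Galntl6 were the 2 with a value under 0 in all 5, and Galnt6 also lay under the median of every sheet, from -0.28 in tuft cells to -0.08 in enterocytes in the authors' deposited table. Per sheet, from 8.16% (stem) to 35.3% (enteroendocrine) of all genes lay above 0, and the share of all genes under 0 in all 5 was not counted. As the order of the groups may differ between sheets, a shared sign has no fixed direction. Galntl6 lay above the median of the stem cell and enteroendocrine sheets. St3gal4 was above 0 in 4 of 5, enteroendocrine cells being the exception, and none was above 0 in all 5. By the sign of the log2 fold change alone, most enterocyte markers went the same way by sheet. Above 0 were 13 of 15 listed in enterocytes (21.4% of all genes), 8 of 13 in stem cells (8.16%) and 14 of 14 in goblet cells (27.3%). Tuft cells had 11 of 16 (31.3%), but enteroendocrine cells 2 of 13 (35.3%). By detection, 10 of the 13 in stem cells were lower in group 1, where St3gal4 was level. In tuft cells 8 were detected in more cells of group 1 and 7 in fewer, and St3gal4 in fewer. The part of enterocyte markers in the St3gal4 values was not tested. The mean detection of St3gal4 over both groups ran from 94.85% in enterocytes through 68.1% in goblet, 56.2% in stem and 45.2% in tuft cells to 40.6% in enteroendocrine cells, and the group values of tuft cells spanned those of the stem and enteroendocrine sheets. The 18 genes that the naming rule leaves out were B3galt1, B3galt4, B3gnt7, B3gnt8, B4galt4, B4galt5, Chst8, Chst11, Fut2, Fut4, Galnt5, Galnt14, Galnt17, Gcnt1, Gcnt2, St3gal3, St3gal6 and St6galnac6. Where both groups were above 0%, their log2 fold changes ran from -0.22 (Chst11 in enteroendocrine cells) to 0.05 (B3gnt7 in goblet cells). In tuft cells B3gnt8, Chst8, Galnt14 and Galnt17 were listed at 0 in group 1 and St3gal6 in group 2, and none of the 18 was detected in more than 30.8% of a group in the authors' deposited table. Some of them were named above for their role in goblet or tuft cells, after their values were seen.

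Genes that supply the enzymes with nucleotide sugars were, by direction, close to all genes of the goblet sheet. Of 27 listed there from a list of 43, 6 lay above 0, against 27.3% of all genes, and 11 above the median of the sheet. An absolute value of 0.25 was reached by 4, all lower in group 1, against 3.37% of all genes in either direction. Tsta3, which makes GDP-fucose, was found in 42.1% of goblet cells in group 1 and 52.0% in group 2 in the authors' deposited table (-0.30). Cmas, which activates sialic acid, had 25.1% and 36.4% (-0.26), and Pmm2, which makes mannose phosphate for GDP-mannose, 56.4% and 68.0% (-0.27), in the authors' deposited table. Slc35b1, a nucleotide carrier of the endoplasmic reticulum, had 47.2% and 55.8% (-0.28) in the authors' deposited table. Cluster 4 had entries for Tsta3, Pmm2, Nans and Slc35c1 of this list as well, with Tsta3 in 39.2% of cluster 4 cells and 11.6% of others in the authors' deposited table.

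Gmds, the first enzyme of GDP-fucose synthesis, was under 0 in all 5 sheets, as were most genes of each sheet. The order of the groups may differ between sheets, so this is no shared direction. The shares of Gmds were 57.4% in group 1 and 70.0% in group 2 of enterocytes (-0.44), and 78.9% and 86.2% of stem cells (-0.29), in the authors' deposited table. Enteroendocrine cells had 64.7% and 70.0% (-0.50), tuft cells 38.9% and 100% (-0.66) and goblet cells 80.5% and 84.4% (-0.23) in the authors' deposited table. Gmds was also an entry of clusters 0 and 3. Apart from Gmds, 18 nucleotide sugar genes were listed in enterocytes, none of which reached 0.25; over the whole list 4 of 19 lay above 0 there, against 21.4% of all genes, and 0 of 25 in stem cells, against 8.16%. Enteroendocrine cells had 6 of 18 above 0, against 35.3% of all genes, and tuft cells 8 of 28, against 31.3%, with Gmppa lowest in tuft cells at 11.1% and 57.1% (-0.85) in the authors' deposited table.

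The mucins themselves, which carry these chains, had 3 of 4 listed members above 0 in goblet cells, against 27.3% of all genes. Muc2 was found in 97.4% of goblet cells in group 1 and 98.0% in group 2 in the authors' deposited table (-0.02). Muc3, a membrane mucin of the brush border, had values above 0 in goblet cells and enterocytes, with 48.7% and 38.4% of goblet cells (0.30) and 85.7% and 78.7% of enterocytes (0.23) in the authors' deposited table. Muc13, another membrane mucin, had 95.9% and 95.6% of goblet cells (0.06) and 85.0% and 91.2% of stem cells (-0.17) in the authors' deposited table. Muc3a, named separately in the files, was at 32.8% and 31.0% of goblet cells (0.03) in the authors' deposited table, and how reads shared by Muc3 and Muc3a were counted is unknown. In enterocytes, at unknown depth, Muc2 was still detected in 30.3% of group 1 cells and 35.8% of group 2 cells by the authors' deposited table. The part of free RNA in the detection of enzyme genes outside goblet cells was not tested.

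Other glycosyltransferases of surface glycans, from a list of 35, were also close to level: none reached 0.25 outside tuft cells, where 2 of 13 did, against 29% of all genes. In goblet cells 6 of 13 lay above 0, against 27.3% of all genes, with Mgat4b, an N-glycan branching enzyme gene, at 22.6% and 27.6% (-0.19) and Mgat5, which makes a further N-glycan branch, at 30.8% and 38.8% (-0.15) in the authors' deposited table. Genes of Golgi organisation had 5 of 18 members above 0 in goblet cells, against 27.3% of all genes, and 11 of 18 above the median of the sheet, with the vesicle coat GTPase gene Arf1 at 63.6% and 70.4% (-0.24) in the authors' deposited table. Gbf1, which activates it, had 22.1% and 32.3% of goblet cells (-0.17), and the Golgi membrane protein gene Golm1 43.6% and 53.7% (-0.13), in the authors' deposited table.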

How the data were processed

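Epithelial cells of 1 pooled sample per genotype were measured, and depth and cell numbers per group are not given in the sources used here. Cell Ranger, Seurat, DESeq2 1.30.1 and mm10 are named, without roles, in the submitters' processing notes. Per the file headers, the authors deposited, for each of 5 cell types, a log2 fold change and, per group, the share of its cells with the gene, a fraction from 0 to 1, given here as a percentage. The deposited p-value of each gene can rest only on single cells, with 1 sample per genotype, and none was used. The marker table holds entries with a log2 fold change of 0.25 or more and detection in at least 25% of the cluster. Filters on cells, doublet treatment and cell type assignment are not given in the sources used here.

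Genes were matched by symbol (1 row per sheet without a symbol was left out) and counted with Python 3.11.15 and pandas 2.3.3; counts were tested on simulated data. Fold thresholds of 0.25 and 0.1, a mean detection floor of 20% and centring on each sheet's median were compared. The genes, lists and rules were chosen with earlier results of these data known; the thresholds of 10 percentage points and of -0.1 or lower were added after the values were seen. Named were genes in 3 or more sheets, in the marker table, or at 0.25 and 20% detection; from other lists at most 4 per sheet, plus Gmds in goblet cells and, outside the rule, the other goblet genes, Chst11 and some tuft genes. No sequences are shown.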

Additional observations from a re-analysis of the deposited data

How the results depend on the processing

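With 1 sample per genotype no replicate could be left out. No paired analysis was possible because the result comes from no test. The counts of genes past 0.25 did not change with centring in enterocytes, stem, goblet and enteroendocrine cells (0, 0, 1 and 0) and went to 7 in tuft cells. Relative to the sheet's median, genes above it numbered 10, 11, 11 and 6 in enterocytes, stem, goblet and enteroendocrine cells, and the medians became 0.0082 and 0.0077 in the first 2, above 0 because the enzyme genes' medians lay above those of the sheets, and -0.032 in goblet, -0.0092 in enteroendocrine and -0.078 in tuft cells. With a mean detection of at least 20%, genes above 0 numbered 2, 2, 4, 0 and 1 in enterocytes, stem, goblet, enteroendocrine and tuft cells, of 5, 6, 18, 2 and 2 left, with medians of -0.023, -0.080, -0.098, -0.087 and -0.020, and 2 tuft genes past 0.25. A threshold of 0.1 gave 0, 4, 12, 5 and 26 in the same order, against 16.2%, 31.8%, 27%, 50.9% and 83.1% of all genes. Means in place of medians were -0.020 in enterocytes, -0.060 in goblet, -0.052 in enteroendocrine and -0.15 in tuft cells. Leaving out tuft genes at 0 in one group, chosen after seeing the data, left 5 past 0.25. The 12 marker entries could not change under the alternatives set for them, since the table holds only entries past 0.25 and higher in the cluster.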

Other observations

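Among the enzyme genes listed in all 5 sheets, Galntl6 spans 1140043 bases of chromosome 8 in the RefSeq annotation and was detected in 11.1% to 21.5% of group 1 and 15.6% to 28.6% of group 2 over the sheets of the authors' deposited table. Galnt7 lies on the same chromosome and ends at 57653055, and Galntl6 starts at 57772489.

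The shares of cluster 4 were mostly under those of the goblet sheet. If cluster 4 held the same cells as both groups of the goblet sheet together, its detection share would lie between those of the 2 groups. That was so, within 0.1 percentage points, for 75 of the 282 genes of cluster 4 (26.6%), and 201 were under both groups. Of the 9 enzyme genes, 3 lay between and 6 did not, such as Gcnt3 at 47.3% in cluster 4, against 48.7% in group 1 and 53.4% in group 2 of the goblet sheet in the authors' deposited table. For enteroendocrine cells and cluster 6 the share between was 85.5%, and for tuft cells and cluster 7 it was 86.5%.

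Galk1, which starts the use of galactose, was an entry of cluster 7, whose leading genes include the tuft markers Sh2d6, Cd24a, Rgs13 and Dclk1. It was detected in 52.0% of cluster 7 cells and 4.8% of all other cells in the authors' deposited table, a log2 fold change of 0.95. No enzyme gene of the symbol rule was an entry of cluster 6 or 7, nor of clusters 0 and 2.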
